A study of Rattus norvegicus with 31 samples.

Results

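The 5 genes Ky, Megf11, Nov, Scube1 and Glb1l2 were followed in rat liver, out of 26312 genes in the count table and 19904 genes kept after removal of genes with fewer than 2 reads over all animals. All 5 passed this filter. They had been picked because their transcripts showed the largest decreases against control in this dataset, so their changes against control are given as a description, without a test. Young adult female Wistar rats (Crl:WI) received pesticides by oral gavage for 28 days, and hepatic total RNA was sequenced from 31 of them, 1 library per rat. The control group (n = 8) was given the vehicle alone, an aqueous suspension of carboxymethyl-cellulose, which every treated rat received too. Single-substance groups received 108 mg/kg bw/day thiacloprid (THI, n = 4), 93 mg/kg bw/day imazalil (IMZ, n = 4) or 288 mg/kg bw/day clothianidin (CTD, n = 3). Mixture groups received 54 THI and 46 IMZ (THI + IMZ), 54 THI and 134 CTD (THI + CTD) or 46 IMZ and 135 CTD (IMZ + CTD), all in mg/kg bw/day, with 4 rats each. Thiacloprid and clothianidin are neonicotinoid insecticides acting on nicotinic acetylcholine receptors, and imazalil is an azole fungicide acting on fungal sterol synthesis. According to the study's methods, one or more rats given the high CTD dose were killed in moribund condition. The CTD group here holds 3 libraries.

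The 5 genes do not belong to 1 pathway. Ky encodes kyphoscoliosis peptidase, a transglutaminase-like protein known from the muscle Z-disc, where it binds filamin C and Igfn1. Megf11 encodes a transmembrane receptor with multiple EGF-like domains, known for the regular spacing of nerve cells in the retina. Nov, also named Ccn3, encodes a secreted matricellular protein of the CCN family that binds integrins and Notch1. Scube1 encodes a secreted and surface-bound glycoprotein with EGF-like repeats and a CUB domain, known from endothelium and platelets and as a partner of BMP signalling. Glb1l2 encodes a relative of lysosomal beta-galactosidase. None of the 5 is a classical marker of hepatocytes, the cell type that makes up most of the liver.

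Levels are given as CPM, the usual unit of read counts corrected for library size, here with scaling by the trimmed mean of M-values (TMM). They are not divided by transcript length, so they are compared between rats and not between genes. Library totals ran from 31820322 to 101230067 counted reads, and the controls were sequenced more deeply than the treated rats, with median totals of 60475417 against 40216559 reads. Summed CPM of 8 hepatocyte markers, albumin among them, ran from 168588 to 259067 in single rats, so each library carried the labelled tissue. In whole liver, fewer cells of a type and less RNA per cell cannot be told apart. GEO's labels give no sequencing batch or date.

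The 250 bases before the annotated start were read from RefSeq's rat promoter table (build GRCr8) for 3 of the 5 genes, to show what stands upstream of them. It held no entry for Nov or Glb1l2. Transcripts of the 3 genes, and those of Nov, were below all controls in every CTD and THI + CTD rat. Capitals mark matches on either strand to 6 motifs, and no match overlaps another. The TATA box was searched as TATAAA and the GC box, the site of Sp1-like factors, as GGGCGG. The box of NF-Y is spelled by its own name, CCAAT. The E box of basic helix-loop-helix factors was searched as CACGTG. For the 1 arm of a nuclear receptor site the letters AGGTCA were taken, and for the AP-1 site of Fos and Jun proteins the letters TGANTCA. Each sequence runs 5′ to 3′ on the strand of the gene.
Ky, chr8:111965612-111965861, plus strand: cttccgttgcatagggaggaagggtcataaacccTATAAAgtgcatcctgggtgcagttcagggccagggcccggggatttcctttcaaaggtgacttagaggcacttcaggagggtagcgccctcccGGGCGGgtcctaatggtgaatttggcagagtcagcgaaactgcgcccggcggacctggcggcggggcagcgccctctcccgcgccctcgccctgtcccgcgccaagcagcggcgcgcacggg
Megf11, chr8:73787332-73787581, plus strand, the first of 6 starts: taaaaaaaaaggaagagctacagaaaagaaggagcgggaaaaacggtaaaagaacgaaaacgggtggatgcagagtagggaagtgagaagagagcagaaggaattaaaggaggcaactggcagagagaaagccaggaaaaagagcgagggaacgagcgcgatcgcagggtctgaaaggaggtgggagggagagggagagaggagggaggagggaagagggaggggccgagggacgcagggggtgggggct
Scube1, chr7:116760945-116761194, minus strand: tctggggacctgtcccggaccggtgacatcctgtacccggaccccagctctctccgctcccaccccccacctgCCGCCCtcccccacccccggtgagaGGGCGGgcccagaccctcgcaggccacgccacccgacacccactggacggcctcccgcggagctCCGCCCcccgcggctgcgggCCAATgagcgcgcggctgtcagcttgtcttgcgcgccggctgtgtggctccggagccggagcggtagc
The Ky stretch held 1 TATA box match, 216 to 211 bases before the start, and 1 GC box match. Scube1 held 3 GC box matches and 1 CCAAT box match, 68 to 64 bases before the start, whereas the Megf11 stretch held none of the 6 motifs. Over 27457 promoters of that length, a TATA box match occurred in 13.1%, a CCAAT box in 34.3%, a GC box in 32.4%, an E box in 5.79%, the nuclear receptor arm in 13.7% and the AP-1 site in 6.36%. The GC content was 65.2% for Ky, 54.8% for Megf11 and 75.2% for Scube1. A match is a description of the letters and not a site of binding, and absence says only that the letters were not in this window.

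Ky transcripts, as sequenced, were lower than in every control rat in 22 of 23 treated rats. The study also measured Ky by quantitative PCR. It names Ky as the exception to a good match in direction between PCR and sequencing. The control rats lay between 11.2 and 32.5 CPM with a median of 14.2. In the single-substance groups, Ky was measured at 2.51, 4.75, 3.45 and 7.14 CPM in the THI rats and at 7.33, 11.04, 10.85 and 7.26 CPM in the IMZ rats. The 3 CTD rats had 1.51, 2.20 and 1.48 CPM, the lowest group mean of this transcript, from 48 to 85 counted reads per library. All 3 groups stayed below the lowest control, although the upper IMZ rats came close to it. The mixtures gave 3.30, 4.27, 3.76 and 7.94 CPM for THI + IMZ and 2.19, 4.48, 3.13 and 2.20 CPM for THI + CTD. In IMZ + CTD the values were 11.5, 10.99, 5.47 and 8.64 CPM, and the first of these rats was the 1 treated animal that reached the control range. On the log2 scale, the fitted change against control was −3.26 ± 0.39 (SE) for CTD, −2.47 ± 0.32 for THI + CTD, −1.89 ± 0.31 for THI and −1.78 ± 0.30 for THI + IMZ. It was smaller for IMZ, at −0.87 ± 0.29, and for IMZ + CTD, at −0.86 ± 0.29. Mean levels fell in the order control, IMZ + CTD, IMZ, THI + IMZ, THI, THI + CTD and CTD, and the ranges of neighbouring groups in this order overlapped at every step. Among single substances, CTD stood lower than IMZ, with a log2 difference of −2.39 ± 0.40, and lower than THI, with −1.37 ± 0.40, and THI lower than IMZ, with −1.02 ± 0.33.

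For a count of treated rats below all controls, the share of all tested genes with the same property is the background. Such separation of all treated from all control rats was found for 0.688% of 19904 genes in THI, 0.553% in IMZ, 5.48% in CTD, 0.663% in THI + IMZ, 1.82% in THI + CTD and 1.01% in IMZ + CTD. Ky had it in 5 groups, Megf11 in 6, Nov and Scube1 in 2 each, and Glb1l2 in 1. Because the members were chosen from these contrasts, nothing is read from these counts. Over all 6 treatments at once, 3 genes, or 0.0151%, had every treated rat below every control rat. Megf11 was 1 of them, and the others, named here after their values were seen, were Itih3 and Itih1, which encode heavy chains of the inter-alpha-trypsin inhibitor that the liver secretes. Their separation was narrow in fold terms, with Itih3 at 3632 to 5185 CPM in treated rats and 5238 to 6102 CPM in controls, and Itih1 at 1094 to 1661 against 1668 to 1942 CPM.

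Megf11 transcripts were low in every treated rat, with a smaller range of change over the 6 groups than for Ky. The controls lay between 12.9 and 28.0 CPM with a median of 17.3, and the 23 treated rats between 3.77 and 9.86 CPM with a median of 6.19. THI rats had 4.74, 6.83, 9.40 and 6.19 CPM and IMZ rats 7.64, 9.86, 5.82 and 7.82 CPM. CTD rats again held the lowest mean, with 5.18, 3.77 and 4.06 CPM. Levels in the mixtures were 6.86, 8.06, 6.999 and 6.91 CPM in THI + IMZ rats, 4.51, 6.53, 5.68 and 4.30 CPM in THI + CTD rats, and 7.47, 4.03, 5.08 and 4.33 CPM in IMZ + CTD rats. No treated rat came within the control range, and all 6 treated groups overlapped with their neighbours in order of mean. The log2 changes against control were −1.44 ± 0.19 (SE) for THI, −1.24 ± 0.19 for IMZ, −2.08 ± 0.23 for CTD, with −1.81 ± 0.20 for IMZ + CTD, −1.80 ± 0.19 for THI + CTD and −1.35 ± 0.19 for THI + IMZ. Megf11 was thus 2.36-fold lower in IMZ, the smallest change, and 4.24-fold lower in CTD. Between single substances, CTD was below IMZ, with a log2 difference of −0.84 ± 0.23, and below THI, with −0.64 ± 0.24, whereas THI and IMZ differed by −0.20 ± 0.21. RefSeq's gene table (GRCr8) places a long non-coding RNA gene over Megf11 and others over Scube1, and how the authors counted strand is not given in the sources used here, so reads of the overlapping loci cannot be told apart.

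**Figure D1:**
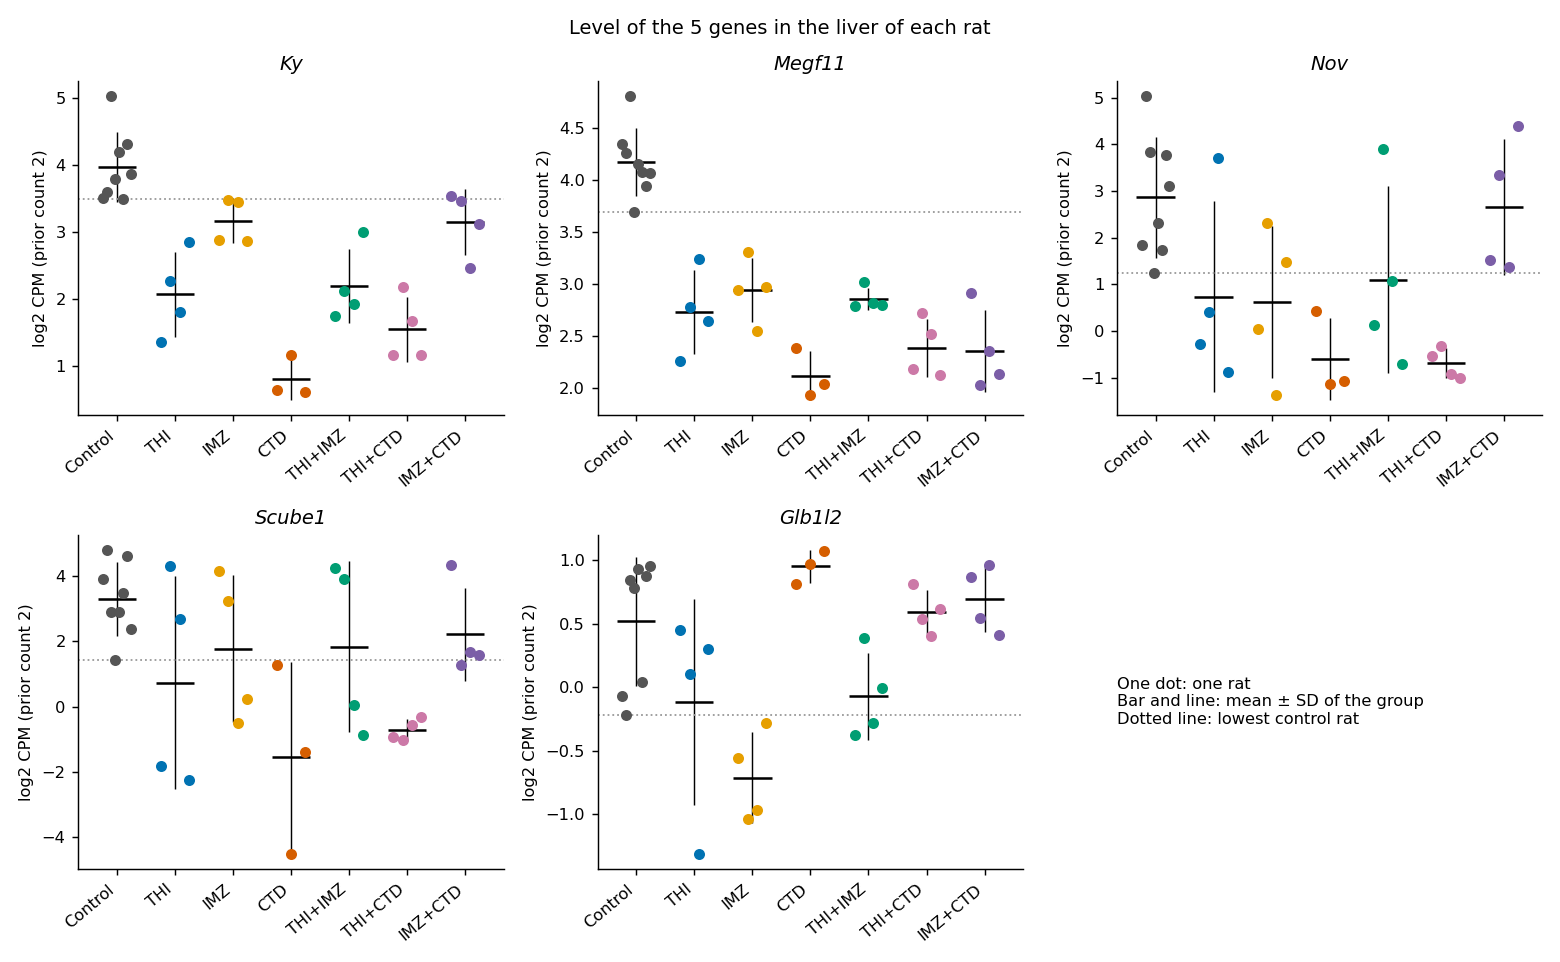
Level of each gene (log2 CPM with a prior count of 2, y axis) in each of the 31 rats by group (x axis), with bars and lines for mean ± SD and a dotted line at the lowest control rat. All Megf11 dots of treated rats lie below the dotted line, Nov and Scube1 spread widely within groups, and the IMZ rats alone lie wholly below it for Glb1l2.

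Nov, the secreted CCN protein, was low in all CTD and THI + CTD rats, evenly so in THI + CTD alone, and scattered widely in the other groups. Control rats ranged from 2.31 to 32.6 CPM with a median of 6.75, a 14.1-fold range. The 4 THI + CTD rats had 0.650, 0.758, 0.490 and 0.456 CPM and the 3 CTD rats 1.30, 0.413 and 0.431 CPM. These were the 2 groups in which all rats lay below all controls. THI rats had 0.781, 1.28, 13.1 and 0.500 CPM, THI + IMZ rats 1.05, 15.0, 2.07 and 0.570 CPM, and IMZ rats 0.984, 4.93, 0.344 and 2.77 CPM. In THI and in THI + IMZ, 1 rat of 4 stood inside the control range and the other 3 below it. In IMZ + CTD the levels of 2.83, 10.1, 2.56 and 20.9 CPM were all inside the control range. The log2 changes were −4.12 ± 1.05 (SE) for THI + CTD, −3.82 ± 1.18 for CTD, −2.19 ± 0.89 for IMZ, −1.42 ± 0.84 for THI, −1.15 ± 0.83 for THI + IMZ and −0.18 ± 0.78 for IMZ + CTD. Several of these hung on 1 rat. Without THI replicate 3 the THI value was −3.56, and without THI + IMZ replicate 2 the value of that mixture was −3.08. Without control replicate 2, the highest control rat, the THI value was −0.90, the THI + IMZ value −0.63 and the IMZ + CTD value 0.34, and without IMZ + CTD replicate 4 the latter was −0.997. Neighbouring groups in order of mean overlapped throughout.

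Scube1, the other secreted product, had the same 2 groups at the bottom and a split within most of the others. Control rats ranged from 2.64 to 27.8 CPM with a median of 9.20, a 10.6-fold range. All 4 THI + CTD rats had less than 1 CPM, at 0.482, 0.446, 0.639 and 0.759. The CTD rats had 2.39, 0 and 0.338 CPM, and for the rat without a read a count of 0 allows up to 0.0775 CPM (3 counts), which covers counting error only. Both groups lay below all controls, with 0 to 92 reads per library in CTD and 20 to 30 in THI + CTD. THI rats had 0.242, 19.8, 6.34 and 0.167 CPM, IMZ rats 17.6, 9.39, 0.663 and 1.12 CPM, and THI + IMZ rats 19.02, 15.04, 0.985 and 0.507 CPM. In each of these groups 2 rats stood inside the control range and 2 below it. IMZ + CTD gave 20.2, 2.38, 3.12 and 2.92 CPM, with 1 rat below the lowest control. The log2 changes were −4.43 ± 1.23 (SE) for THI + CTD, −3.76 ± 1.33 for CTD, −0.90 ± 0.92 for THI, −0.81 ± 0.93 for IMZ + CTD, −0.80 ± 0.92 for IMZ and −0.50 ± 0.90 for THI + IMZ. For the last 4 the difference was not larger than its SE. Removal of single rats moved these values widely: CTD was −6.30 without its replicate 1, THI −2.51 without replicate 2, IMZ −1.76 without replicate 1, THI + IMZ −1.21 without replicate 1, and IMZ + CTD −2.16 without replicate 1. In the other direction, the values came to −0.50 without THI replicate 4, −0.41 without IMZ replicate 3, −0.10 without THI + IMZ replicate 4 and −0.53 without IMZ + CTD replicate 2. Here too, neighbouring groups in order of mean overlapped throughout.

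The rats that were high for Nov were in part those that were high for Scube1. THI + IMZ replicate 2 had 15.0 CPM of Nov and 15.0 CPM of Scube1, and control replicate 2 was the highest control for both. THI replicate 2, on the other hand, had the highest Scube1 of its group, 19.8 CPM, with Nov at 1.28 CPM. IMZ + CTD replicate 1 likewise had 20.2 CPM of Scube1 and 2.83 CPM of Nov, while replicate 4 of that group had 20.9 CPM of Nov and 2.92 CPM of Scube1.

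Glb1l2 behaved unlike the other 4. It was below all controls in the IMZ group alone, so the description as a strongly lowered gene holds for IMZ only. Control rats had 0.814 to 1.90 CPM with a median of 1.72, from 27 to 153 reads. IMZ rats had 0.637, 0.441, 0.466 and 0.778 CPM, THI rats 1.32, 1.03, 0.358 and 1.19 CPM, and THI + IMZ rats 0.726, 1.26, 0.778 and 0.950 CPM. The IMZ values are thus even and low, whereas THI and THI + IMZ overlapped with the controls. All 3 groups with CTD stood within the control range or just above it. CTD rats had 1.72, 1.91 and 2.06 CPM, THI + CTD rats 1.71, 1.405, 1.28 and 1.49 CPM, and IMZ + CTD rats 1.78, 1.42, 1.91 and 1.28 CPM. The log2 changes were −1.32 ± 0.28 (SE) for IMZ, −0.65 ± 0.27 for THI + IMZ, −0.58 ± 0.27 for THI, 0.37 ± 0.28 for CTD, 0.13 ± 0.26 for IMZ + CTD and 0.01 ± 0.26 for THI + CTD. Without THI replicate 3, the rat with 0.358 CPM, the THI value was −0.31. Between the single substances, CTD exceeded IMZ by 1.70 ± 0.33 and THI by 0.95 ± 0.33 on the log2 scale.

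**Figure D2:**
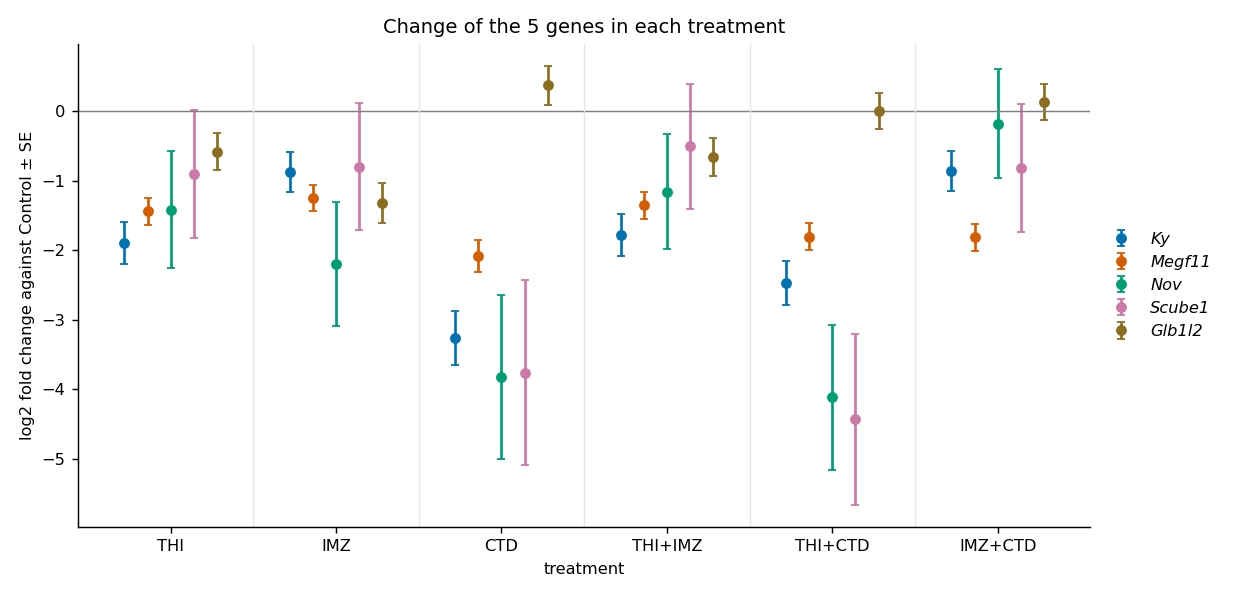
Log2 fold change against control (y axis) with its SE for each gene in the 6 treatments (x axis). Megf11 varies between −1.24 and −2.08, Nov and Scube1 carry SEs of 0.78 to 1.33 and reach −3.76 to −4.43 in CTD and THI + CTD, and Glb1l2 is lowest in IMZ.

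Spread between rats under vehicle alone is given as a description, since the same control values entered the contrasts that chose the genes. It was large for Nov and Scube1, whose SD of log2 CPM over the 8 controls was 1.30 and 1.14, against a median of 0.17 for 10876 genes with a symbol and an average log2 CPM above 0. These SDs stood at the 99.8th and 99.7th percentile of those genes. Ky, with an SD of 0.52, was at the 96.2nd percentile and Glb1l2, with 0.51, at the 95.9th. Megf11 was the steadiest of the 5, with an SD of 0.33 at the 86.5th percentile. When the deviations from all 7 group means were pooled, Scube1 had an SD of 2.04 and Nov of 1.48, more than in the controls alone, although the THI + CTD rats had SDs of only 0.33 and 0.32.

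**Figure D3:**
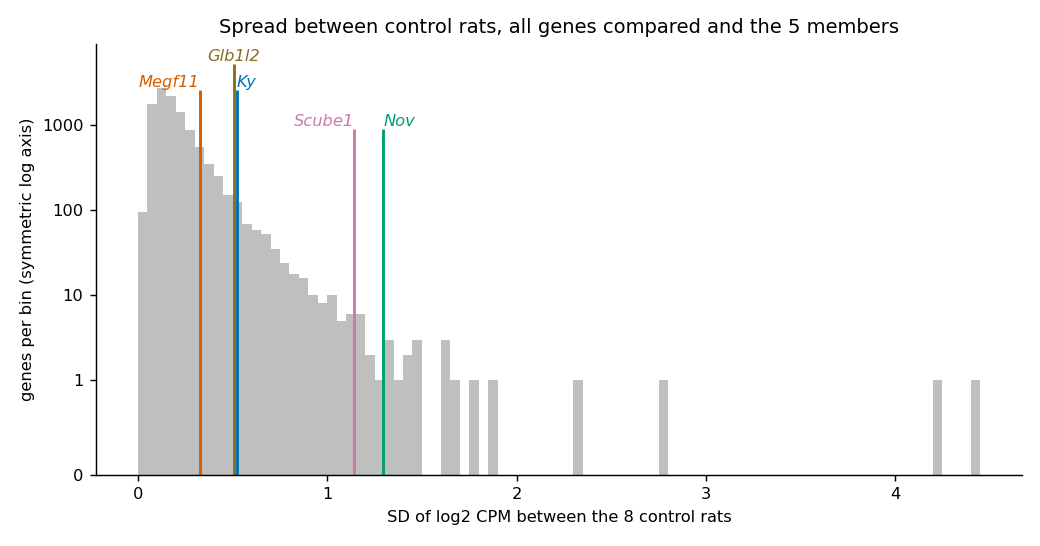
Number of genes (y axis, symmetric log scale) by SD of log2 CPM between the 8 control rats (x axis, bins of 0.05), with coloured lines at the 5 genes. Nov (1.30) and Scube1 (1.14) lie far in the right tail, while Megf11 (0.33) lies nearest to the bulk of the 10876 genes.

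Whether the mixtures acted as the sum of their components was asked by setting the measured log2 change of each mixture beside the dose-weighted sum of the single-substance changes, weighting THI and IMZ by 0.5 and CTD by 0.47, the part of each single dose in the mixture. This assumes a log2 change proportional to dose, and a sum over substances that act alike. Megf11 stayed near the sum in all 3 mixtures, with differences of −0.22 ± 0.19 (SE) in IMZ + CTD, −0.11 ± 0.19 in THI + CTD and −0.01 ± 0.18 in THI + IMZ. The difference in IMZ + CTD became −0.44 without IMZ + CTD replicate 1. Ky was near the sum in THI + CTD, at −2.47 measured and −2.48 summed, and was 0.40 ± 0.29 below it in THI + IMZ (−1.78 measured and −1.38 summed). In IMZ + CTD, Ky was lowered less than the sum, with −0.86 measured against −1.97, a difference of 1.11 ± 0.29. Nov showed the same side in that mixture, −0.18 measured against −2.89 with a difference of 2.71 ± 0.84. Scube1 differed there by 1.35 ± 0.96, which came to 0.00 without IMZ + CTD replicate 1 and to 2.55 without CTD replicate 1. Glb1l2, which was not lowered in that mixture (0.13 measured against −0.48 summed), differed by 0.61 ± 0.27. The share of all genes above their sum in IMZ + CTD was not computed, so nothing is read from how many members stood above it. In THI + CTD, Nov and Scube1 were on the other side, −1.61 ± 1.06 and −2.21 ± 1.24 from the sum, and these became −0.54 without THI replicate 3 and −1.02 without CTD replicate 1. The 15 differences were not tested, since the same contrasts had chosen the genes.

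**Figure D4:**
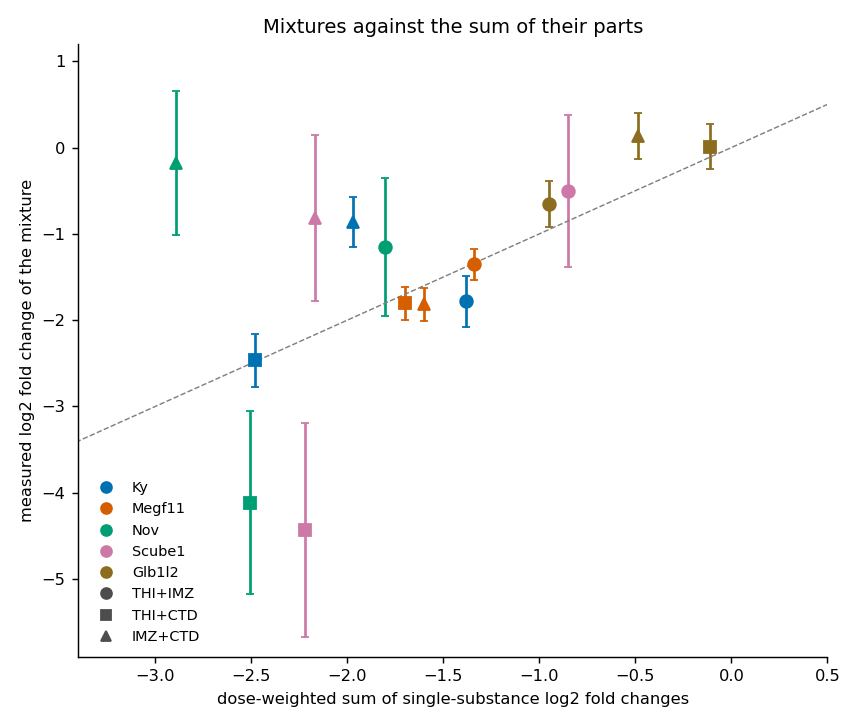
Measured log2 fold change of each mixture against control (y axis) over the dose-weighted sum of its components (x axis), with the SE of the difference as bars and a dashed line where both are equal. Megf11 lies near the line in all 3 mixtures, and the IMZ + CTD triangles of Nov, Scube1, Ky and Glb1l2 lie above it.

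The genes whose pattern over the 31 rats was most like that of each member were ranked by Pearson's r of log2 CPM among 10871 other genes, as a description. Rats share a treatment within groups, so r holds differences between groups as well as between rats. Ky was most like Hyal3 (r = 0.87), Hyal1 (r = 0.82) and Tceb2 (r = 0.78). The first pair are hyaluronidase genes that stand close together in the genome, and Tceb2 encodes elongin B. Megf11 was most like Hgfac (r = 0.82), the activator of hepatocyte growth factor, then Itih3 (r = 0.81) and Hyal3 (r = 0.80). Among the genes most like Nov were Prlr (r = 0.85), the prolactin receptor, and Sptssa (r = 0.82), a subunit of serine palmitoyltransferase. Among the genes most like Scube1 were Krt23 (r = 0.80), a keratin, and Gas6 (r = 0.80), a ligand of TAM receptors. Glb1l2 had no gene above r = 0.71, which was reached by Nedd4, a ubiquitin ligase, followed by Sept10 (r = 0.63), a septin, and Fmo1 (r = 0.61), a flavin monooxygenase. Computed on deviations from the group means, r was 0.78 for Prlr with Nov. It fell to 0.63 for Hyal3 with Ky, to 0.11 for Itih3 with Megf11, to 0.44 for Hgfac with Megf11 and to 0.30 for Nedd4 with Glb1l2.

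At the edge of the choice stood other lowered genes, and Cyp7a1 was lowered more than any member in THI and in THI + IMZ. In THI, Cyp7a1, the rate-limiting enzyme of bile acid synthesis, had a log2 change of −2.45 ± 0.55 (SE) and the cell cycle inhibitor Cdkn1a one of −1.49 ± 0.25, beside −1.89 for Ky. In IMZ, Adam15 had −1.19 ± 0.20 and the leptin receptor gene Lepr −1.07 ± 0.20, just above Megf11 and Glb1l2. In CTD, the metallothionein gene Mt2A had −3.03 ± 0.75. In THI + IMZ these were Cyp7a1 with −2.90 ± 0.56 and Oas1b with −1.73 ± 0.38, in THI + CTD Stac3 with −3.42 ± 0.81, and in IMZ + CTD Usp2 with −1.62 ± 0.36 and the immunoglobulin gene Igkc with −1.56 ± 0.35. The choice therefore left out genes as strongly lowered as some members.

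Genes of the families and pathways of the 5 members were tested for each treatment by edgeR's quasi-likelihood test with Benjamini-Hochberg adjustment over all 19904 genes and a threshold of 0.05. Of 109 listed genes, 105 were measured. Past the threshold were 16 lower and 3 higher in CTD, 6 lower and 4 higher in THI + CTD, and 1 higher in THI + IMZ (Gaa, acid alpha-glucosidase). Among all genes, 6.03% were lower and 6.62% higher in CTD, 1.71% and 2.67% in THI + CTD, and 0.332% and 0.849% in THI + IMZ. This base includes genes with very few reads, which can hardly pass. After edgeR's filterByExpr, a filter on low counts, 1302 of 13870 genes were lower and 1515 higher in CTD. The median log2 change of the list in CTD was −0.16, beside −0.07 for all genes. In THI, IMZ and IMZ + CTD no listed gene passed with edgeR, where 0.166%, 0.0603% and 0.452% of all genes were lower and 0.377%, 0.191% and 1% higher. There, 11, 10 and 17 had an unadjusted p under 0.05, and DESeq2 called 1, 1 and 0. Over all 19904 genes, DESeq2 called 199, 150 and 567. The share of all genes with an unadjusted p under 0.05 is not given here, so nothing is read from such counts. The count in CTD was 10 without CTD replicate 1, and that in THI + CTD was 3 without THI + CTD replicate 3.

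Several of the nearest relatives of the members had too few reads for a decrease to be seen. As background for the counts below, 6.03% of all genes were lower and 6.62% higher in CTD. In THI + CTD these shares were 1.71% and 2.67%, and the other treatments are given above. Of the CCN family of Nov, none of 5 genes passed in any treatment with edgeR or DESeq2, and 1 had an unadjusted p under 0.05, in THI. Cyr61 lay between 3.34 and 20.6 CPM and Ctgf between 1.69 and 9.66 CPM over all rats, while Wisp1 and Wisp3 had at most 6 and 2 reads in any library. Of 8 measured Ky partners and sarcomere genes, none passed in any treatment with either tool, and 1 had an unadjusted p under 0.05, in THI + CTD. Igfn1 had at most 2 reads in a library and Flnc 0.339 to 1.90 CPM. Of 5 MEGF relatives, Pear1, a receptor of platelets and endothelium, was lower in CTD, with a log2 change of −0.42 ± 0.10 (adjusted p = 0.0044, edgeR), and Megf9 was higher in CTD by 0.51 ± 0.15 (adjusted p = 0.022, edgeR) and in THI + CTD by 0.58 ± 0.14 (adjusted p = 0.0095, edgeR). Without CTD replicate 1, Pear1 had an adjusted p of 0.070 and Megf9 of 0.21, and without THI + CTD replicate 3, Megf9 of 0.067 (edgeR). Scube2 passed as lower in THI + CTD, but its 4 libraries there had no read and the controls at most 11, so no fold is given. Scube3, named after its values were seen, passed in no treatment and ranged from 0.0615 to 7.33 CPM over all rats. Of 17 genes listed for beta-galactosidase relatives and lysosomal glycosidases, some of which are other lysosomal enzymes, the following passed in CTD. Ctsa (−0.33 ± 0.07, adjusted p = 0.0015, edgeR) and Gusb (−0.34 ± 0.08, adjusted p = 0.0049, edgeR), were lower, as were Hexa and Galns, while Manba was higher. Ctsa encodes cathepsin A, a carboxypeptidase that protects beta-galactosidase, Galns a sulfatase, and Gusb, Hexa and Manba glycosidases. Glb1l3, the gene next to Glb1l2, had at most 9 reads in a library.

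Of 18 Notch pathway genes, 5 were lower and 1 higher in CTD. For this and the following pathways, the background in CTD was 6.03% of all genes lower and 6.62% higher. It was 1.71% and 2.67% in THI + CTD. Notch1, the receptor that Nov binds, went from 26.4 ± 2.68 CPM (SD, n = 8) to 15.9 ± 0.915 CPM (n = 3), a log2 change of −0.73 ± 0.12 (adjusted p = 6.3e-05, edgeR). The other lower genes were Notch2, the glycosyltransferase gene Lfng, Dll4 and Heyl, and the higher one was Rbpj, the DNA-binding partner of Notch, by 0.48 ± 0.11 (adjusted p = 0.0025, edgeR). In THI + CTD, Notch1 and Lfng were lower. Of 15 Hedgehog pathway genes, 1 passed, in CTD and in THI + CTD, which was Disp1, needed for release of Hedgehog ligands (−0.81 ± 0.18 in CTD, adjusted p = 0.0019, edgeR). Of 35 BMP and TGF-beta genes, 5 were lower in CTD. Bmp2 fell from 7.72 ± 1.05 CPM (SD, n = 8) to 3.41 ± 0.890 CPM (n = 3), a log2 change of −1.18 ± 0.14 (adjusted p = 1.3e-06, edgeR), and the TGF-beta receptor gene Tgfbr2 from 137.8 ± 8.97 to 97.4 ± 6.18 CPM. Tgfbr3, Tgfb1 and Smad6 were the others. In THI + CTD, Bmp2 and Tgfbr3 were lower and Smad2 and Bambi higher. Hexa, Galns, Dll4, Heyl, Tgfb1, Smad6 and Bambi lie outside the rule for named genes and are named after their values were seen. The calls in CTD for Ctsa, Gusb, Notch1, Rbpj, Disp1, Bmp2 and Tgfbr2 held in every alternative analysis that gave an adjusted p. The other calls for related genes under that rule were each lost in at least 1 alternative. In THI + CTD, Notch1 had an adjusted p of 0.14 without THI + CTD replicate 3, and Disp1 of 0.14 without THI + CTD replicate 1 (edgeR).

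**Figure D5:**
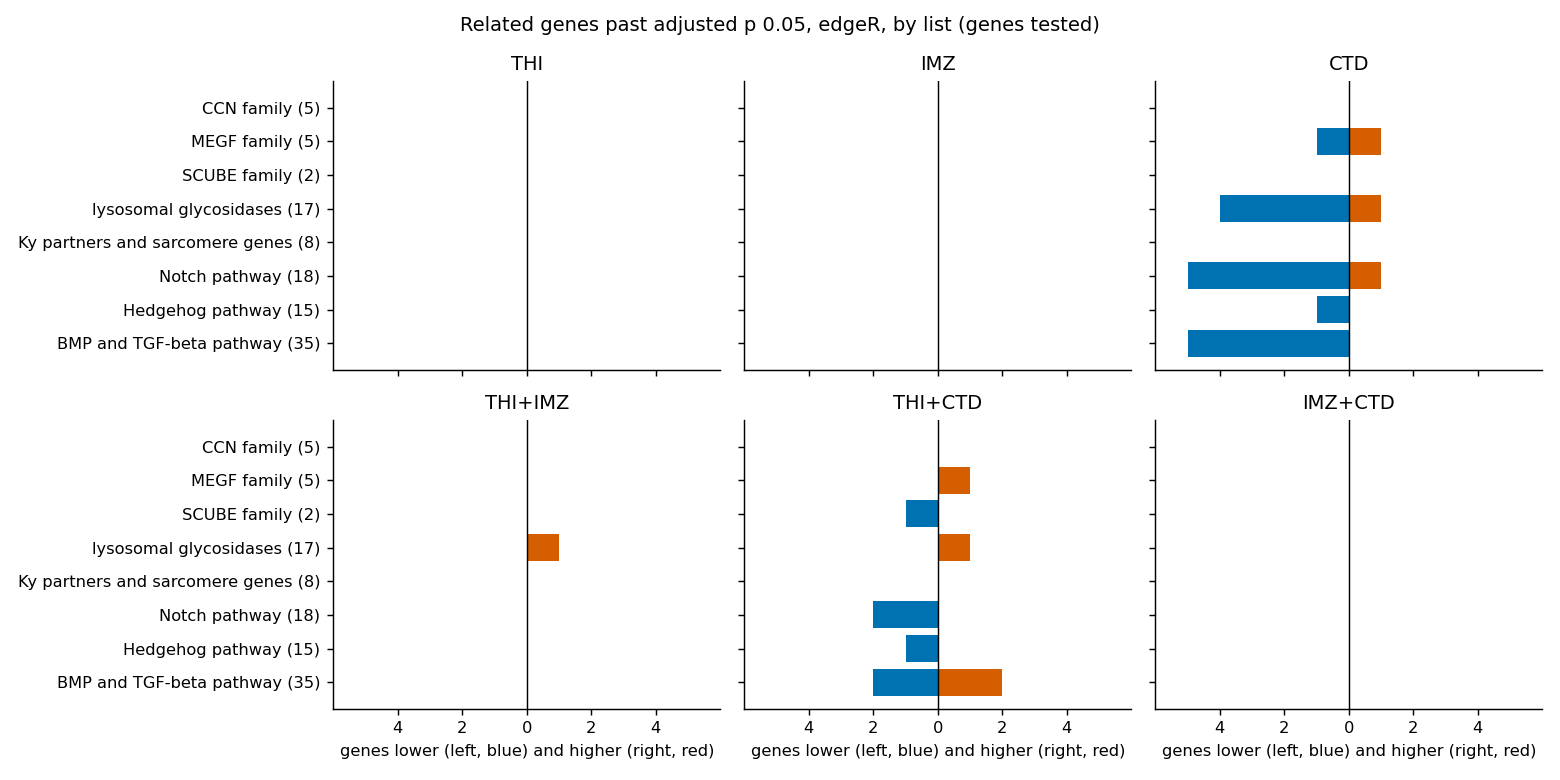
Number of related genes past an adjusted p of 0.05 (x axis; lower to the left in blue, higher to the right in red) in each list (y axis, genes tested in brackets) and treatment (panels). CTD holds 19 of them, THI + CTD 10, THI + IMZ 1, and the other panels are empty.

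Markers of other liver cells were read beside the members, since several of these genes are expressed outside hepatocytes. Skeletal muscle markers, which would mark tissue carried along with Ky, summed to 0.182 to 1.32 CPM over 7 measured genes in any rat, and none passed in any treatment with edgeR or DESeq2, with 1 at an unadjusted p under 0.05, in THI. Smooth muscle markers summed to 14.7 to 43.4 CPM in the controls, 13.9 to 27.7 in CTD and 16.4 to 20.7 in THI + CTD, and Myh11 was lower in CTD, THI + IMZ and THI + CTD, with log2 changes of −0.73 ± 0.25, −0.90 ± 0.22 and −0.86 ± 0.22 (adjusted p = 0.047, 0.033 and 0.019, edgeR). These calls were lost without single rats, with adjusted p up to 0.32 (CTD), 0.13 (THI + IMZ) and 0.10 (THI + CTD). Endothelial markers summed to 304 to 379 CPM in the controls, 264 to 327 in CTD and 278 to 343 in THI + CTD, and Kdr, a receptor of VEGF, was lower in CTD, with a log2 change of −0.58 ± 0.10 (adjusted p = 0.00011, edgeR), with Cdh5 lower there and Tagln of smooth muscle higher. The Kdr call in CTD held in every alternative. Those of Cdh5 and Tagln were lost without single rats, with adjusted p up to 0.17 and 0.21 (edgeR). In THI + CTD, Kdr was lower as well, with a log2 change of −0.34 ± 0.09 (adjusted p = 0.018, edgeR), a call lost without THI + CTD replicate 3 (adjusted p = 0.11, edgeR), without replicate 4 and with the replicate block (adjusted p = 0.30, edgeR). Stellate cell and fibroblast markers summed to 312 to 515 CPM in the controls and to 422 to 577 in CTD, with Col3a1 higher and Reln lower there, and in THI + CTD Col1a1 was higher and Reln lower. Each of these calls was lost without single rats. Adjusted p then rose up to 0.064 (Col3a1) and 0.28 (Reln) in CTD (edgeR). In THI + CTD it rose up to 0.10 (Col1a1) and 0.13 (Reln, edgeR). The pericyte gene Rgs5 was higher by 0.92 ± 0.16 (adjusted p = 0.0023, edgeR) in THI + IMZ and by 0.76 ± 0.16 in IMZ (adjusted p = 0.034, edgeR), the latter up to 0.23 without single rats. Lymphocyte markers (T and NK cells, and separately B with plasma cells), bile duct markers and mesothelial markers passed in no treatment with edgeR. At most 3, 2, 1 and 0 of them had an unadjusted p under 0.05 in a treatment, and DESeq2 called at most 1, 0, 1 and 0. Of Kupffer cell, hepatocyte and platelet markers 1 each was lower in THI + CTD (Cd163, Serpina1 and Itga2b), and of hepatocyte markers Apoa1 was higher in THI + IMZ. The Serpina1 call held in every alternative. Those of Cd163, Itga2b and Apoa1 were lost without single rats, with adjusted p up to 0.10, 0.14 and 0.13 (edgeR). Of 8 endothelial markers, 2 were lower in CTD and 1 in THI + CTD, and the other 6 and 7 did not pass (edgeR). Among all genes, 6.03% were lower in CTD and 1.71% in THI + CTD. The part of endothelial or smooth muscle cells in the levels of the 5 genes was not tested.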

How the data were processed

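Liver RNA of 31 rats was sequenced from TruSeq Stranded Total RNA libraries. The authors mapped reads with STAR 2.5.2b to Rnor_5.0 after quality control (FastQC 0.11.5), and the annotation release is not given in the sources used here. They deposited raw read counts per gene and a second table, used here as a normalised signal, of counts divided by DESeq2 size factors (version 1.15.1). Recovery of counts from the latter gave whole numbers, within 0.01 reads, for 100.0% of values and 0 values differing from the raw counts. Its count test is therefore that of the raw counts.

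Genes were kept (19904) where all libraries together held at least 2 counts. All 31 libraries entered 1 model with a mean per group, by edgeR 4.0.16 in R 4.3.3 with TMM scaling and the two-sided quasi-likelihood F test, Benjamini-Hochberg adjusted over all genes. The biological coefficient of variation was 19.4%. The procedure was tested on simulated data. Alternatives included DESeq2 1.42.0, other filters and scalings, thinning, a replicate block and leaving out each rat. The replicate block fits 1 term per replicate number. Numbers 5 to 8 occur in the controls alone, so these controls then add nothing to the comparisons. Python 3.11.15 made tables and figures.

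The members and gene lists were chosen with earlier results of these data known. Named were the 5 members; the 3 genes of highest Pearson r with each over 31 rats (among genes averaging above 0 in log2 CPM); per treatment the first 2 other genes by log2 fold change among those with adjusted p under 0.05, the same minimum level and every treated rat below every control; and up to 4 genes per family, pathway or marker list, by number of treatments past the threshold and then by p. P-values measure the spread between rats. Depth ran from 31820322 to 101230067 counts per library. Some genes that meet the naming rule are not reported here.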

Additional observations from a re-analysis of the deposited data

Results flagged for a closer look

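In groups of 4 to 8 rats, 6 of 30 sets of values had 1 rat far from the others by Dixon's criterion. Chance meets it in about 1 of 20 sets where values follow a normal distribution. It was applied here to CPM and not to log2 CPM, and CPM is skewed towards high values. The 6 sets are therefore not read as more than chance gives. For Ky this was control replicate 3 with 32.5 CPM, and for Megf11 THI + IMZ replicate 2 with 8.06 CPM, although the whole Megf11 range of that group was 6.86 to 8.06 CPM. For Nov they were control replicate 2 with 32.6 CPM, THI replicate 3 with 13.1 CPM and THI + IMZ replicate 2 with 15.0 CPM. For Scube1 it was IMZ + CTD replicate 1 with 20.2 CPM.

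Glb1l2 lay above the control mean in every CTD rat and below it in every THI, IMZ and THI + IMZ rat. The log2 change of CTD exceeded that of THI by 0.95, that of IMZ by 1.70 and that of THI + IMZ by 1.03. These differences were not tested, because the gene had been chosen from the same contrasts.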

How the results depend on the processing

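Of 60 values for the 5 genes, recomputed 1085 times, 1077 moved by less than 1 SD between rats and 8 by more, all on leaving out 1 rat. The pooled SD of log2 CPM was 1.48 for Nov and 2.04 for Scube1, so for these genes large shifts stay under that mark. Scube1 in THI went from -0.90 to -2.51 without THI replicate 2 and is among the 1077. Of 30 changes against control, 28 kept their sign, the exceptions being Nov in IMZ + CTD and Glb1l2 in THI + CTD. Leaving out single rats gave these ranges of log2 differences. Nov against control lay at -3.56 to -0.90 in THI and -3.08 to -0.63 in THI + IMZ, Scube1 at -6.30 to -3.16 in CTD. CTD against THI gave -3.18 to -0.26 for Nov and -5.40 to -1.24 for Scube1, and CTD against IMZ -5.51 to -2.001 for Scube1. THI against IMZ gave -1.37 to 1.48 for Nov, and THI + IMZ against the dose-weighted sum -1.27 to 1.73 for Nov. The number of related genes past the threshold ranged from 0 to 2 in THI, 0 to 1 in IMZ, 10 to 21 in CTD, 0 to 1 in THI + IMZ, 3 to 11 in THI + CTD and 0 to 1 in IMZ + CTD. It was 1 with edgeR's filterByExpr and 1 with DESeq2 in THI, and 1 with DESeq2 in IMZ. With only the groups compared in the fit it was 0 in THI + IMZ and 1 in IMZ + CTD. The cause was not tested. Counts recovered from the normalised table, an alternative chosen after seeing the data, were the same as the raw counts, so this alternative could not change any value. Of 40 calls of named related and marker genes, 10 held in every alternative, 29 were lost on leaving out 1 rat, and 24 were lost with the replicate block. The block also sets aside control replicates 5 to 8, so these losses are not an effect of blocking alone.

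Replicate numbers are shared between groups in the labels, but nothing says that a number marks shared rats or days. Over 78 same-numbered pairs, correlations of deviations from the group means ran from -0.27 to 0.42 with a median of 0.02, and 20 were above 0.1. Over 326 differently numbered pairs they ran from -0.42 to 0.43 with a median of -0.01, and 55 were above 0.1. The ranges overlap, so these correlations cannot decide whether rats of the same number share a factor. Because the labels name none, the numbers were not taken as pairs. With the replicate block, which also sets aside control replicates 5 to 8, 10 related genes passed in CTD, 0 in THI + IMZ, 2 in THI + CTD and 1 in IMZ + CTD. Depth limits Glb1l2, with as few as 13 reads in a library, and Scube1 in CTD, with 0 to 92.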
